A study of Mus musculus with 9 samples.

Results

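Pvalb, Lhx6, Sox6, Nos1, Adarb2, Lamp5, Ndnf, Reln, Erbb4 and Cnr1 are marker genes of hippocampal interneurons, the inhibitory neurons of the hippocampus. They were chosen by name, and all 10 are among the 54532 genes of the deposited count table. Each was detected in all 9 libraries and passed the filter on low counts, with between 538 and 9658 counts per library. The libraries came from the hippocampus of N4 Ube3a m-/p+ mice, which carry the mutated Ube3a allele from the mother, a model of Angelman syndrome made susceptible to sound-induced seizures by backcrossing to a 129 background. At postnatal day 21, 5 mice received Ant-134, an oligonucleotide directed against the microRNA miR-134, and 4 received a scrambled oligonucleotide (Scr) at the same dose, both into the cerebral ventricles. All 9 went through audiogenic seizure induction at postnatal days 22, 24 and 26, and tissue was taken 24 h after the last test. No library came from a wild-type or an uninjected mouse, so Scr was the only reference, and the labels give no sex.

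Hippocampal interneurons arise mainly from the medial and the caudal ganglionic eminence (MGE and CGE) of the embryonic forebrain. Cells of MGE origin include the fast-spiking basket and axo-axonic cells that control the output of pyramidal neurons, whereas those of CGE origin include cholecystokinin and VIP cells, and neurogliaform cells come from both sources. Loss or silencing of interneurons raises network excitability, and they are studied in epilepsy for that reason. The comparison asked whether transcripts of these classes differed between seizure-tested mice given Ant-134 and those given Scr. The study reported milder seizures after Ant-134 on this test schedule, so the oligonucleotide and seizure history cannot be told apart. In bulk tissue, fewer cells of a class and less RNA per cell cannot be told apart.

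The mature miRNA that Ant-134 targets is shown first with its seed, bases 2 to 8, in capitals, since the seed sets which transcripts it can pair with. It lies at chr12:109734145-109734166 on the plus strand (RefSeq, GRCm38.p6).
mmu-miR-134-5p: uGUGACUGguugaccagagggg

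The longest annotated 3′ UTR of each gene was searched on the transcript strand for CAGTCAC, the match to bases 2 to 8, and AGTCACA, the match to bases 2 to 7 followed by an A, and a site that holds both overlapping motifs was counted once as an 8-base match. Of the 10 genes, 2 held a match (20%), and the share among the 15279 tested genes with an annotated 3′ UTR was 19.5%. The UTRs of the interneuron genes were long, with a median of 3962 bases against 1164 over all genes. Both genes with a match were among the 5 with a UTR of at least 3962 bases. Among the 1266 tested genes with a UTR at least that long, 53.7% held a match. Ndnf held 4 sites in a UTR of 7881 bases, of which 1 was an 8-base match and 1 a match to bases 2 to 8. Nos1 held 1 site, an 8-base match, in a UTR of 5027 bases. The 5 sites are printed here with the matching bases in capitals, because they are the places where these transcripts could pair with the seed. All lie in the 3′ UTR on the plus strand of GRCm38 (GENCODE M21), at chr6:65704477-65704506, chr6:65705404-65705433, chr6:65710706-65710735 and chr6:65711207-65711236 for Ndnf and at chr5:117958007-117958036 for Nos1.
Ndnf site 1: gagagacatggAGTCACActgcttgtaact
Ndnf site 2: aggactttcatCAGTCACAacacaatgcta
Ndnf site 3: tctggtctttgCAGTCACcaggcaggaatg
Ndnf site 4: caaaggtactgAGTCACAacacaaacagtt
Nos1 site 1: gccatgtgtggCAGTCACAaaggtcatcag

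In the other 8 genes these letters are not in the longest UTR or in any other annotated 3′ UTR. Mir134 itself was listed at 0 in all 9 libraries, which were made from poly-A-selected RNA, so the table does not measure the target of the oligonucleotide.

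The libraries held between 28583298 and 38431058 counts in the Ant-134 group and between 31985959 and 41978113 in the Scr group. Levels are given in CPM, which are counts scaled to the library total after TMM normalization. Ube3a had between 2438 and 3705 counts per library, with 90.1 ± 6.25 CPM after Ant-134 (SD, n = 5) and 92.3 ± 4.80 after Scr (SD, n = 4). Its reads checked no label, since all mice carried the same genotype. Y-linked genes were near 0 in 3 libraries, which were Ant-134 1, Ant-134 4 and Scr 3. Libraries also differed in tissue from outside the hippocampus, and the summed level of 6 choroid plexus markers ran from 68.3 to 2561 CPM after Ant-134 and from 81.2 to 2019 CPM after Scr. Their part in the results was not tested.

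No difference between the groups passed the test in any of the 10 interneuron genes. In edgeR's quasi-likelihood test with no covariate, 0 of 10 had an unadjusted p value below 0.05, where 4.18% of the 19782 genes tested did (827 genes, 294 higher and 533 lower after Ant-134). After Benjamini-Hochberg adjustment the count was 0 of 10 beside 0.0% of all genes in edgeR, and each interneuron gene had an adjusted p of 0.998. DESeq2, run without the edgeR filter on low counts, likewise called 0 of 10 at an unadjusted p below 0.05, beside 2.74% of 37435 genes. After adjustment, with its default filter on mean counts, it called 16 genes, none of them an interneuron gene. Of the 10 genes, 6 were higher and 4 lower after Ant-134, with a median log2 fold change of 0.019 against 0.0026 over all genes tested, of which 10133 were higher and 9649 lower. In every gene the values of the groups overlapped. The 95% intervals allowed a ratio of Ant-134 to Scr between 0.731 and 1.31 over the 10 genes, and the width differed from gene to gene.

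**Figure D1:**
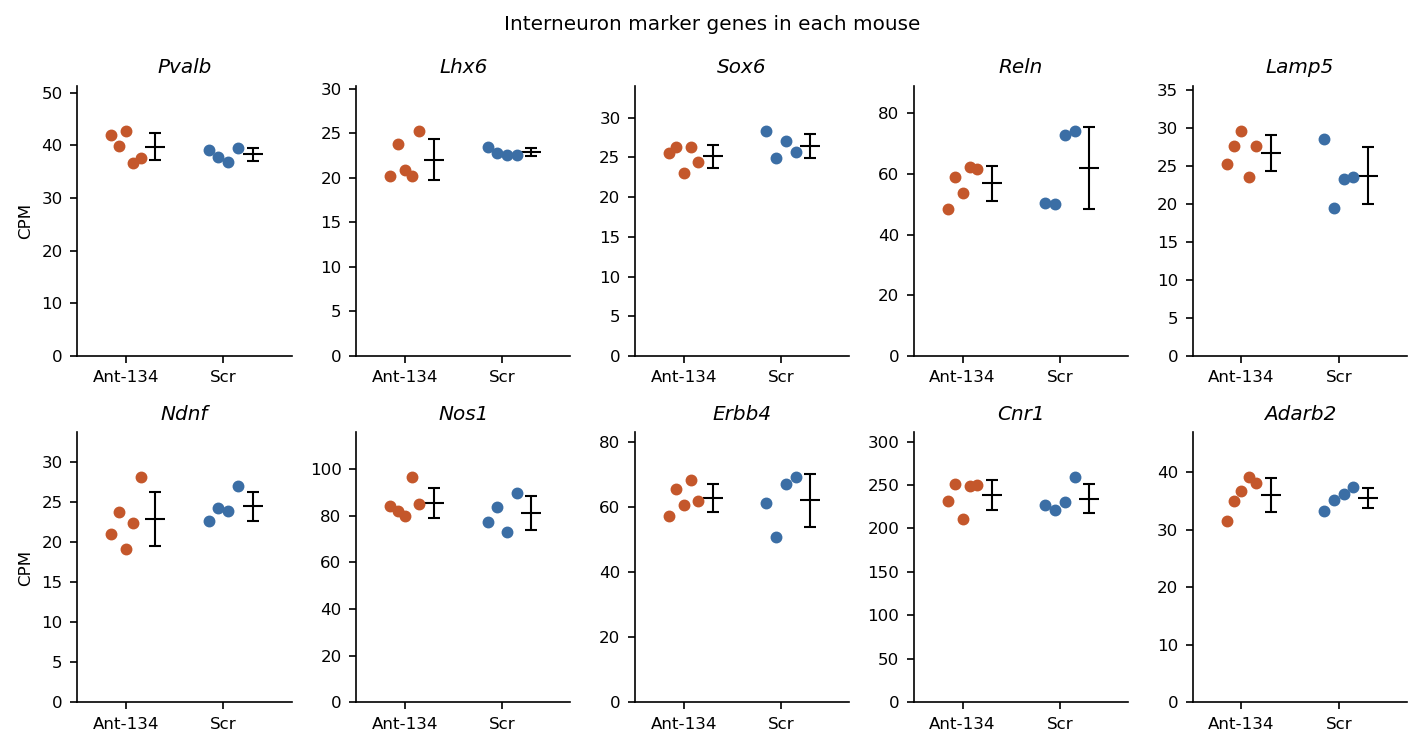
Level of each of the 10 interneuron genes in CPM (TMM-normalized, axis from 0) in each of 5 Ant-134 and 4 Scr mice. Points are mice and the bars beside them are the mean and SD, and in every panel the points of the groups overlap.

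Lhx6 and Sox6 are transcription factors that specify interneurons of MGE origin, and Sox6 is also expressed in oligodendrocyte precursors. Lhx6 (chr2:36081953-36105408) was at 20.2, 23.8, 20.9, 20.2 and 25.3 CPM in the 5 Ant-134 mice and at 23.5, 22.8, 22.6 and 22.5 CPM in the 4 Scr mice. The Scr values lay close together and within the Ant-134 range. Lhx6 had a log2 fold change of -0.05 with a 95% interval from -0.21 to 0.11 (two-sided exact permutation p = 0.563). Sox6 (chr7:115470872-116038796) was at 25.1 ± 1.40 CPM after Ant-134 (SD, n = 5) and 26.5 ± 1.52 after Scr (SD, n = 4). Its log2 fold change was -0.07, with an interval from -0.21 to 0.06. Its highest value was in Scr 1 and its lowest in Ant-134 3. The summed level of 6 oligodendrocyte precursor markers ran from 321 to 424 CPM after Ant-134 and from 377 to 406 CPM after Scr, and none of the 6 was called. Their part in the level of Sox6 was not tested.

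Pvalb encodes parvalbumin, the calcium-binding protein of fast-spiking basket and axo-axonic cells. It lies at chr15:78191114-78206400 and was at 42.0, 39.8, 42.7, 36.6 and 37.7 CPM after Ant-134 and at 39.1, 37.7, 36.8 and 39.4 CPM after Scr. It varied least of the 10, with a coefficient of variation of 5.50% over the 9 mice, and 3 of 5 Ant-134 mice lay above all Scr mice while 1 lay below them. On the log2 scale the difference was 0.05 (SE 0.056) with an interval from -0.07 to 0.18, and the exact permutation p was 0.302. Without Ant-134 3, the mouse with the most Pvalb and with the highest summed level of thalamus markers (104 CPM), it was 0.028. The part of thalamic tissue in the level of Pvalb was not tested. The interval corresponds to a ratio between 0.956 and 1.13.

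Nos1, the neuronal nitric oxide synthase, marks neurogliaform and ivy cells and long-range projecting interneurons, and it is also found in some pyramidal neurons. It lies at chr5:117781032-117958840. It was at 84.0, 82.1, 79.9, 96.3 and 84.8 CPM after Ant-134 and at 77.4, 83.7, 72.9 and 89.6 CPM after Scr. Ant-134 4 was above every other mouse and Scr 3 below every other mouse. The estimated log2 fold change was 0.08 (SE 0.065) with an interval from -0.06 to 0.22 (exact permutation p = 0.357). It was 0.030 without Ant-134 4, 0.031 without Scr 3 and 0.13 without Scr 4. This gene carries the single 8-base miR-134 match printed above.

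Adarb2, an RNA-editing enzyme family member without known editing activity, marks interneurons of CGE origin. It lies at chr13:8202866-8768747 and was at 36.0 ± 2.98 CPM after Ant-134 (SD, n = 5) and 35.4 ± 1.79 after Scr (SD, n = 4). On the log2 scale it differed by 0.02, with an interval from -0.12 to 0.16. Its lowest and highest values were both in the Ant-134 group, in mice 1 and 4, and the sign turned without Ant-134 4 (-0.0087) or without Scr 1 (-0.011).

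Lamp5, a lysosome-associated membrane protein family member found in synaptic terminals, marks neurogliaform cells and had the largest log2 fold change of the 10 in size. It lies at chr2:136052239-136069917. It was at 25.3, 27.7, 29.7, 23.6 and 27.7 CPM after Ant-134 and at 28.6, 19.4, 23.3 and 23.6 CPM after Scr. The Scr group was spread, with Scr 1 near the top of the Ant-134 range and Scr 2 below all other mice. The mean was 26.8 ± 2.36 CPM against 23.7 ± 3.78, the log2 fold change was 0.18 (SE 0.099) with an interval from -0.04 to 0.39, the edgeR unadjusted p was 0.0978 and the exact permutation p was 0.190. Of all genes tested, 22.7% had a log2 fold change at least as large in size. Without Scr 1 the log2 fold change was 0.27 (edgeR unadjusted p = 0.00809), and over all leave-one-out fits it lay between 0.089 and 0.27.

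Ndnf, a secreted neuron-derived factor, marks neurogliaform cells, and its transcript held 4 of the 5 miR-134 seed matches. It lies at chr6:65671590-65712326. It was at 21.1, 23.8, 19.1, 22.5 and 28.1 CPM after Ant-134 and at 22.7, 24.3, 23.9 and 27.1 CPM after Scr. The Ant-134 group held both the lowest and the highest mouse. In edgeR the log2 fold change was -0.10 (SE 0.095) with an interval from -0.30 to 0.11 (exact permutation p = 0.413). Without Ant-134 5, the mouse with the highest value, it was -0.18 (edgeR unadjusted p = 0.0387), whereas without Ant-134 3 it was -0.039 and without Scr 4 it was -0.044. Nos1, the other gene with a seed match, had a log2 fold change of the opposite sign, and both intervals included 0.

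Reln encodes reelin, an extracellular glycoprotein secreted by Cajal-Retzius cells and by interneurons of several classes, including neurogliaform and somatostatin cells. It lies at chr5:21884454-22344702 and varied most of the 10, with a coefficient of variation of 16.2% over the 9 mice. It was at 48.5, 59.0, 53.6, 62.2 and 61.5 CPM after Ant-134 and at 50.3, 50.02, 73.0 and 74.2 CPM after Scr. The Scr group split into a low pair, Scr 1 and Scr 2, and a high pair, Scr 3 and Scr 4, that lay above all Ant-134 mice. The log2 fold change was -0.12 (SE 0.15) with an interval from -0.45 to 0.21 (exact permutation p = 0.476). It was -0.019 without Scr 4, -0.029 without Scr 3 and -0.21 without Scr 1 or without Scr 2. The summed level of 5 Cajal-Retzius cell markers was 8.10, 7.30, 6.79, 7.62 and 6.45 CPM after Ant-134 and 5.76, 7.98, 8.82 and 8.75 CPM after Scr, and was also highest in Scr 3 and Scr 4, although Ant-134 1, the mouse with the least Reln, was next. Of these 5 markers, 3 were abundant enough to be tested, 0 of them were called, and Lhx1 and Lhx5 were too low to be tested. Their part in the level of Reln was not tested.

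**Figure D2:**
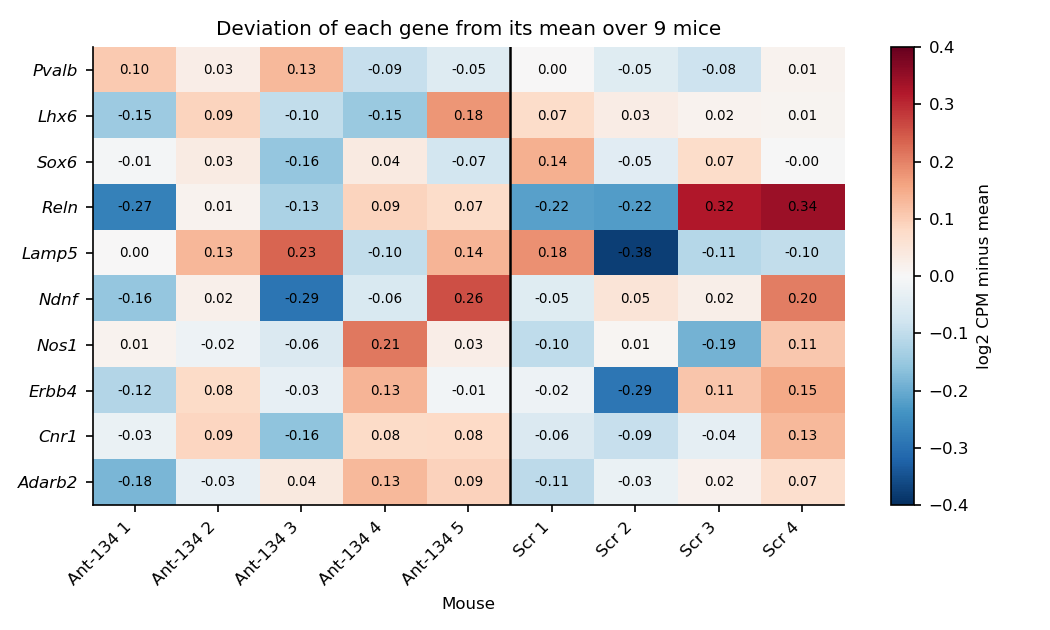
Deviation of each interneuron gene from its own mean over the 9 mice, on the log2 CPM scale, with the 5 Ant-134 mice left of the line and the 4 Scr mice right of it. The darkest cells are Reln in Scr 3 (0.32) and Scr 4 (0.34) and Lamp5 in Scr 2 (-0.38).

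Erbb4, the receptor tyrosine kinase for neuregulins, is enriched in interneurons, where it acts at their excitatory inputs. It lies at chr1:68032186-69108059. It was at 57.3, 65.5, 60.7, 68.2 and 61.7 CPM after Ant-134 and at 61.2, 50.8, 67.1 and 69.0 CPM after Scr. Scr 2 was below every other mouse and Scr 4 above. Erbb4 had a log2 fold change of 0.02 (SE 0.082) with an interval from -0.16 to 0.19 (exact permutation p = 0.913). The sign turned without Scr 2 (-0.069), without Ant-134 4 and without Ant-134 2.

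Cnr1 encodes the CB1 cannabinoid receptor, which sits on the terminals of cholecystokinin basket cells and at lower density on excitatory terminals. It lies at chr4:33924593-33948831 and had the most counts of the 10, between 5937 and 9658 per library. It was at 239 ± 17.2 CPM after Ant-134 (SD, n = 5) and 234 ± 16.5 after Scr (SD, n = 4), with its lowest value in Ant-134 3 and its highest in Scr 4. On the log2 scale the difference was 0.02 (SE 0.060) with an interval from -0.10 to 0.15 (exact permutation p = 0.722). The sign turned without Scr 2 (-0.0011).

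**Figure D3:**
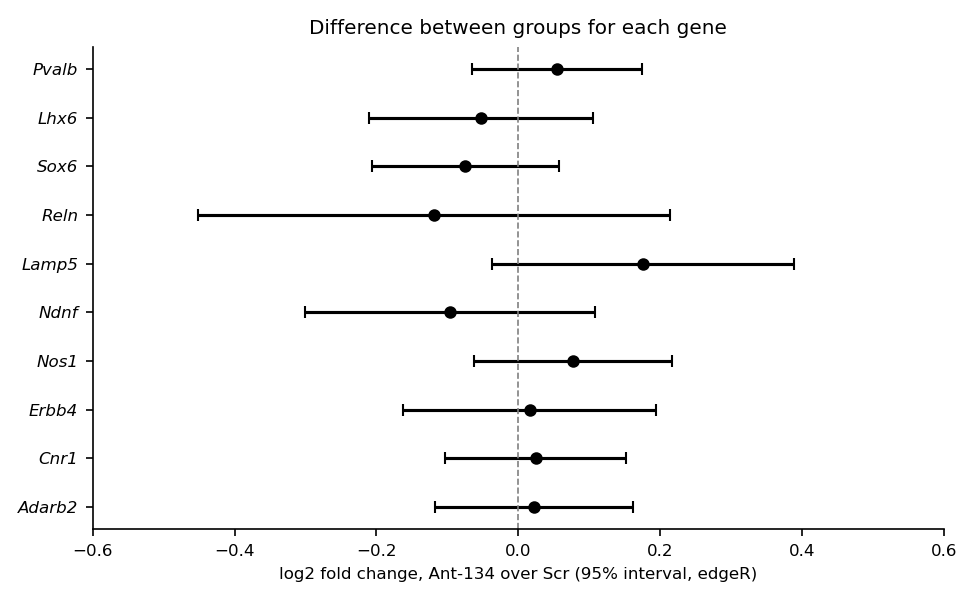
The log2 fold change of Ant-134 over Scr for each interneuron gene with its 95% interval, from edgeR with 5 and 4 mice. All 10 intervals include 0, that of Reln is the widest (-0.45 to 0.21) and Lamp5 has the highest estimate (0.18).

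Levels of different genes were compared as FPKM, which divides by gene length. Pvalb and Cnr1 were the most abundant, with 37.2 ± 2.08 and 36.4 ± 2.47 FPKM over the 9 mice (SD), and Pvalb was the higher of the pair in 4 of 9 libraries. Lamp5 followed with 8.60 and Nos1 with 7.41 FPKM, then Erbb4 with 5.01, Lhx6 with 4.62, Adarb2 with 2.70, Reln with 2.47, Ndnf with 2.31 and Sox6 with 1.72 FPKM. Neighbours in this order were separated without overlap between libraries at 3 places, between Cnr1 and Lamp5, between Nos1 and Erbb4 and between Lhx6 and Adarb2. Elsewhere the ranges of neighbours overlapped, although Ndnf was above Sox6 within each of the 9 libraries. Reln and Ndnf were in the stated order in 5 of 9 libraries.

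The number of the 10 above their own mean was 3, 8, 3, 6 and 7 in the Ant-134 mice and 4, 3, 6 and 8 in the Scr mice. Of the 45 pairs of genes, 27 had a positive and 18 a negative Pearson's r across the 9 mice, with a median of 0.15, and 3 pairs had an unadjusted two-sided exact permutation p below 0.05. None of the 45 passed Benjamini-Hochberg adjustment by Pearson's r, where the smallest adjusted permutation p was 0.367, and 1 passed by Spearman's rho.

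That pair was Reln and Erbb4, with r = 0.79 (exact permutation p = 0.00816, adjusted 0.367) and rho = 0.93 (exact permutation p = 7.5e-04, adjusted 0.0337). Without Scr 3 and Scr 4, the mice farthest from the median of Reln, r was 0.75, with values centred on their group means it was 0.84, and leaving out 1 mouse in turn gave 0.75 to 0.86. Lhx6 and Ndnf had r = 0.72 (exact permutation p = 0.0266, adjusted 0.508) and rho = 0.63 (exact permutation p = 0.0760, adjusted 0.662), with r = 0.74 without the 2 mice farthest from the median of Lhx6. Without Ant-134 5, the mouse highest in both genes, r was 0.58. Ndnf and Cnr1 had r = 0.70 (exact permutation p = 0.0338, adjusted 0.508) and rho = 0.48 (exact permutation p = 0.194, adjusted 0.662). The last relation rested on Ant-134 3 and Ant-134 5, without which r was 0.43.

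**Figure D4:**
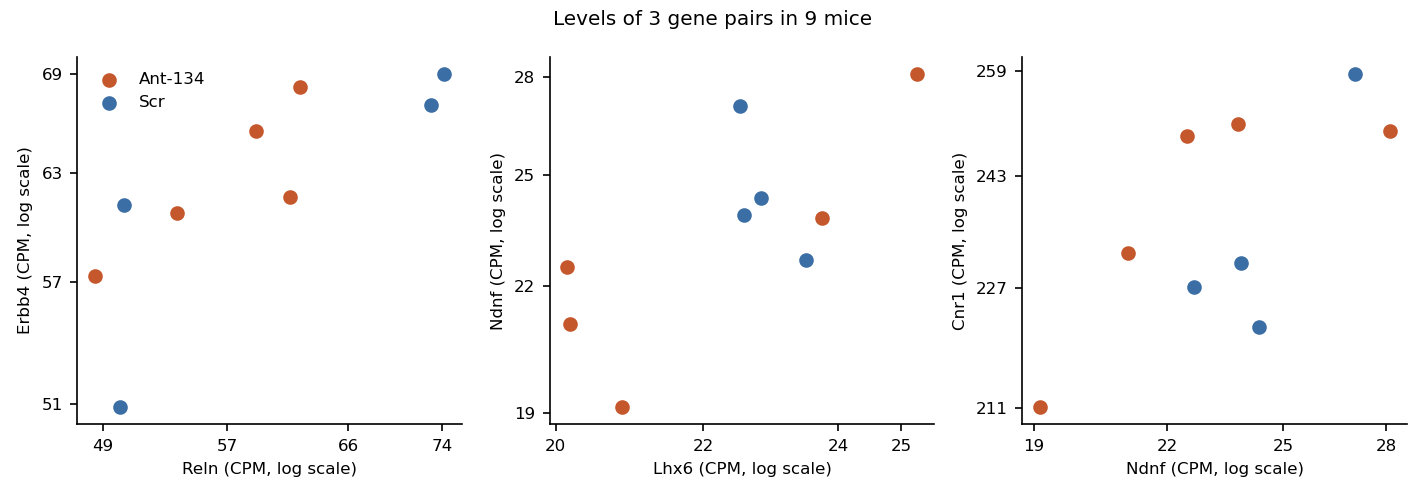
Levels in CPM, on log axes that do not start at 0, of the 3 gene pairs with the highest correlation, with 1 point for each of the 9 mice. Reln and Erbb4 (left, rho = 0.93) have their 3 highest values in the same mice, Scr 4, Scr 3 and Ant-134 4, and Ndnf and Cnr1 (right) are both lowest in Ant-134 3.

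Lists of 71 related genes, all tested, showed the surroundings of these markers. Of them, 50 were higher and 21 lower after Ant-134, and 5 had an unadjusted p below 0.05 in edgeR (7.04%, beside 4.18% of all genes), 4 higher and 1 lower, with 0 called after adjustment. The list medians lay between -0.09 and 0.06 on the log2 scale, beside 0.0026 over all genes.

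In the list of MGE-lineage cell genes, 10 of 16 were higher and 6 lower, with a median of 0.060 that was 0.0012 without Ant-134 5, and 1 was called. The most abundant were Sst, the neuropeptide somatostatin, at 247 ± 30.8 FPKM after Ant-134 and 240 ± 21.5 after Scr, Npy, neuropeptide Y, at 73.6 ± 8.29 and 66.2 ± 4.97, and Kcnc1, a potassium channel of fast-spiking cells, at 18.9 ± 1.35 and 18.1 ± 1.15 (SD, n = 5 and 4). The called gene was Akr1c18, a steroid-metabolising reductase, with 53 to 96 counts per library. It was at 2.92, 2.00, 3.38, 2.49 and 2.21 CPM after Ant-134 and at 2.25, 1.51, 1.55 and 2.19 CPM after Scr. The groups overlapped, with Ant-134 2 and Ant-134 5 among the Scr values, and the log2 fold change was 0.47 (SE 0.20, edgeR unadjusted p = 0.0316, adjusted p = 0.998).

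In the list of CGE-lineage cell genes, 12 of 16 were higher and 4 lower, with a median of 0.053, and 0 were called. The median was 0.0084 without Scr 2. Cck, the neuropeptide cholecystokinin, which pyramidal neurons also express, was at 273 ± 21.7 FPKM after Ant-134 and 259 ± 8.74 after Scr, Cxcl14, a chemokine, was at 41.5 ± 4.05 and 38.6 ± 3.39, and Calb2, the calcium-binding protein calretinin, was at 30.2 ± 7.78 and 31.2 ± 3.53 (SD, n = 5 and 4). Of 10 pan-GABAergic genes 8 were higher and 2 lower, with a median of 0.038 that turned to -0.0021 without Ant-134 5, and 0 were called. Gad1, which makes GABA, was at 32.6 ± 1.60 FPKM after Ant-134 and 31.7 ± 2.48 after Scr, and Slc32a1, the vesicular GABA transporter, at 24.9 ± 1.99 and 24.0 ± 2.70.

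Of 7 neuregulin ligands and ErbB receptors, 4 were higher and 3 lower with a median of 0.0011. Nrg3, a ligand of Erbb4, was at 5.82 ± 0.42 FPKM after Ant-134 and 5.81 ± 0.48 after Scr, Erbb3, a receptor of oligodendrocytes, at 3.93 ± 1.00 and 3.77 ± 0.28, and Nrg2, a further ligand of the family, at 2.59 ± 0.25 and 2.69 ± 0.28. Of 6 reelin receptors and adaptors, 5 were higher and 1 lower with a median of 0.034, which lay between 0.014 and 0.065 with single mice left out. Fyn, a kinase of the pathway, was at 46.4 ± 1.97 and 45.7 ± 2.37 FPKM, Crk, an adaptor, at 30.7 ± 1.15 and 29.9 ± 1.01, and Dab1, the adaptor that reelin phosphorylates through its receptors, at 14.6 ± 0.59 and 13.8 ± 0.28. In both lists 0 genes were called.

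The list of endocannabinoid synthesis and breakdown held enzymes that make and degrade the ligands of the CB1 receptor and Cnrip1, a protein that binds the receptor itself. All 8 were above 0 on the log2 scale, by 0.015 (Cnrip1) to 0.22 (Napepld), and 2 were called. Their summed level was 1113 CPM in Ant-134 3, 979 to 1004 CPM in the other Ant-134 mice and 928 to 1023 CPM after Scr, and the list median of 0.047 was 0.019 without Ant-134 3. Napepld, which makes N-acylethanolamines, was at 25.7, 22.8, 25.2, 23.4 and 25.98 CPM after Ant-134 and at 22.01, 24.8, 16.4 and 21.4 CPM after Scr. Scr 3 was below every other mouse and Scr 2 within the Ant-134 range, and the log2 fold change was 0.22 (SE 0.096, edgeR unadjusted p = 0.0408). Without Scr 3 it was 0.11 (edgeR unadjusted p = 0.137). Faah, which degrades anandamide, was at 192, 187, 203, 196 and 194 CPM after Ant-134 and at 186, 189, 170 and 173 CPM after Scr. Only Scr 2 of the Scr mice lay within the Ant-134 range, and the log2 fold change was 0.11 (SE 0.045, edgeR unadjusted p = 0.0246). Abhd12, Mgll and Dagla, the most abundant of the list, were at 84.8 ± 3.26, 41.4 ± 4.69 and 32.4 ± 3.01 FPKM after Ant-134 and at 81.3 ± 2.91, 40.3 ± 3.78 and 31.9 ± 1.43 after Scr (SD, n = 5 and 4).

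Of 8 further genes of nitric oxide signalling, 3 were higher and 5 lower with a median of -0.09, which lay between -0.18 and -0.053 with single mice left out, and 2 were called in opposite directions. Gucy1b1, a subunit of the guanylate cyclase that senses nitric oxide, was at 118.7, 126.3, 121.0, 127.0 and 126.5 CPM after Ant-134 and at 117.5, 111.9, 113.9 and 119.1 CPM after Scr. Only the lowest Ant-134 mouse and the highest Scr mouse overlapped, and the log2 fold change was 0.10 (SE 0.040, edgeR unadjusted p = 0.0244). Nos3, the endothelial nitric oxide synthase, was at 6.27, 6.31, 6.83, 5.99 and 6.05 CPM after Ant-134 and at 8.17, 9.16, 7.50 and 6.06 CPM after Scr. Only Scr 4 lay within the Ant-134 range, and the log2 fold change was -0.30 (SE 0.12, edgeR unadjusted p = 0.0247). The summed level of 5 endothelial markers ran from 147 to 187 CPM after Ant-134 and from 163 to 214 CPM after Scr, all 5 were below 0 on the log2 scale and 0 were called, and their part in the level of Nos3 was not tested. Nos1ap, an adaptor of Nos1, was at 9.0 ± 1.58 and 9.47 ± 0.61 FPKM, and Gucy1a1, a partner subunit of Gucy1b1, at 3.96 ± 0.49 and 3.85 ± 0.46. Each of the 5 called genes lost its call in 3 to 10 of 17 other settings, among them leaving out single mice.

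**Figure D5:**
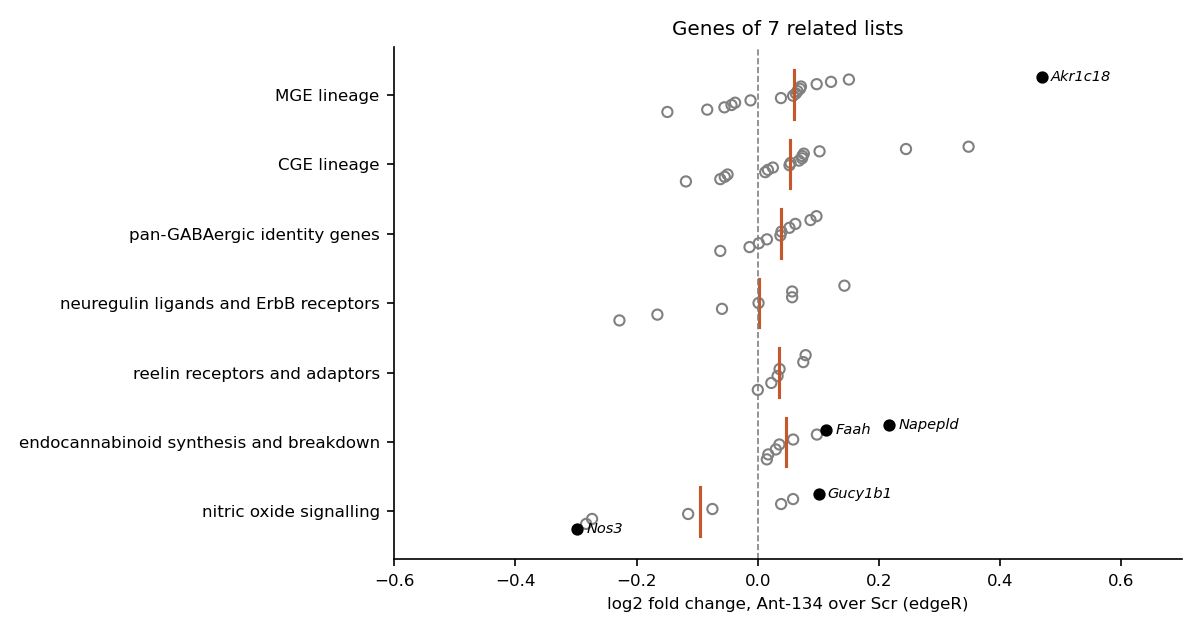
The log2 fold change of each of the 71 related genes by list (edgeR, 5 Ant-134 and 4 Scr mice), with the list median as a vertical bar. Filled points are the 5 genes with an unadjusted p below 0.05, of which 0 passed adjustment, and all 8 genes of the endocannabinoid list lie right of 0.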

How the data were processed

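Libraries were made from poly-A-selected RNA. The authors mapped reads to GRCm38 with HISAT2 2.0.5, counted them per gene with featureCounts 1.5.0-p3 and deposited counts without normalization and FPKM values. Groups and replicate numbers were taken from the labels. Counts were tested with edgeR 4.0.16 in R 4.3.3 (filterByExpr with a minimum count of 10, TMM, robust quasi-likelihood test, Benjamini-Hochberg adjustment over 19782 genes). Standard errors came from the F statistic, and levels are CPM of TMM-normalized libraries. Correlations used log2(CPM + 0.1) and all 362880 orders of the 9 mice, and single genes all 126 arrangements of the groups, which cannot give a p below 0.00794. A floor of 3 counts was 0.0709 to 0.107 CPM and covers counting error only. No pair of libraries within a group agreed within counting noise (chi-square per gene 8.30 to 21.1), and p values measure the spread between these mice. Alternatives used DESeq2 1.42.0, limma 3.58.1 on log2(FPKM + 1) or log2(FPKM + 0.1), no filter, DESeq2 size factors, a replicate block over the 4 numbers that both groups share, a covariate of Y-linked genes and leaving out each mouse. The fits were tested on simulated counts. The interneuron genes and all lists were chosen with earlier results of these data known. Named were the 10 interneuron genes, and from each related list the called genes and the 3 most abundant by FPKM, of which 1 is not reported here. From lists of other cells, only called genes were named, besides Lhx1 and Lhx5, which like Cnrip1 were chosen after their values were seen, and the 3 pairs with the highest r were given. Gene positions are those of the deposited tables, and 3′ UTRs came from GENCODE M21.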

Additional observations from a re-analysis of the deposited data

Results flagged for a closer look

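A single mouse stood apart from the rest of its group in 6 of the 68 sets of values examined for this, where chance gives about 3.4. The interneuron genes taken singly were not among them. The summed level of the endocannabinoid synthesis and breakdown genes was 1113 CPM in Ant-134 3 and 979 to 1004 CPM in the other Ant-134 mice. The summed level of thalamus markers was 104 CPM in the same mouse and 56.1 to 60.7 CPM in the others. Choroid plexus markers summed to 2561 CPM in Ant-134 1 and to 68.3 to 678 CPM in the other Ant-134 mice. Activity-regulated genes summed to 540 CPM in Ant-134 5 and to 361 to 405 CPM in the others. Striatum markers summed to 18.5 CPM in Ant-134 5 against 15.1 to 16.0 CPM, and to 19.98 CPM in Scr 3 against 16.0 to 16.5 CPM in the other Scr mice. Without Ant-134 1 or without Ant-134 3, 0 of the 10 interneuron genes had an edgeR unadjusted p below 0.05, as with all 9 mice, beside 4.97% and 4.24% of all genes in those fits. Without Ant-134 5 the count was 1, which was Ndnf, beside 3.97% of all genes, and without Scr 3 it was 0, beside 3.14%.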

How the results depend on the processing

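The log2 fold changes of the 10 interneuron genes were computed under 170 alternatives in all, of which 159 kept the direction and stayed above an unadjusted p of 0.05. In 4 the value passed that threshold, for Lamp5 without a filter (0.18, edgeR) or without Scr 1, and for Ndnf without Ant-134 5 or with the replicate block (-0.18, edgeR), a fit that also lacks Ant-134 5 because no Scr mouse has that number. The direction turned in 7. With single mice left out, Pvalb lay between 0.028 and 0.082, Lhx6 between -0.11 and -0.022, Sox6 between -0.10 and -0.045, Ndnf between -0.18 and -0.039 and the median of the 10 between -0.027 and 0.060, while Erbb4 lay between -0.069 and 0.072, Cnr1 between -0.0011 and 0.076 and Adarb2 between -0.011 and 0.068, and with the replicate block Adarb2 was at -9.0e-05. Over all genes, 1775 had an unadjusted p below 0.05 without a filter and 1467 in limma without a filter on FPKM. After adjustment the count was 14 without a filter, 16 in DESeq2, 2 with the replicate block and 0 to 17 with a mouse left out, the last without Ant-134 1. The median of the MGE-lineage genes was 0.0012 to 0.089 with a mouse left out, the lowest without Ant-134 5, and 0.0029 with the replicate block, which lacks the same mouse, and that of the neuregulin list -0.042 to 0.044, the lowest without Ant-134 3 and the highest without Scr 4. The cause was not tested. Mice share only a number, since the deviations of same-numbered mice correlated by -0.12 to 0.018, 0 of 4 best with their own number, and the block fit called 810 genes. In that fit 4 of the 5 called related genes, Napepld, Faah, Nos3 and Gucy1b1, passed 0.05 no more, at log2 fold changes of 0.21, 0.11, -0.27 and 0.093, and the pan-GABAergic median was -0.0015. Counting error was 4.31% for Ndnf at its lowest count of 538, and its coefficient of variation over the mice was 11.7%.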

Other observations

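Among genes of hippocampal principal neurons, 7 of 10 were higher and 3 lower after Ant-134, with a median log2 fold change of 0.083 against 0.0026 over all genes tested. Of the 10, 1 was called, beside 4.18% of all genes. The called gene was Dsp, which encodes desmoplakin and marks dentate granule cells, at 47.1 ± 4.48 CPM after Ant-134 (SD, n = 5) and 41.7 ± 2.87 after Scr (SD, n = 4). Its log2 fold change was 0.18 (SE 0.069, edgeR unadjusted p = 0.0230, adjusted p = 0.998). It lost its call in 4 of 17 other settings, among them the fit without Ant-134 3, where its level was highest. With single mice left out the log2 fold change of Dsp lay between 0.12 and 0.23. All 7 activity-regulated genes were above 0 on the log2 scale, with a median of 0.17, and 0 were called in edgeR. Their summed level was 540 CPM in Ant-134 5 and 361 to 405 CPM in the other Ant-134 mice, against 317 to 405 CPM after Scr. Markers of neocortex, thalamus and striatum had medians of -0.05, 0.17 and -0.07, with 0 called in each list of 5. The summed level of the thalamus markers was 104 CPM in Ant-134 3 and 56.1 to 60.7 CPM in the other Ant-134 mice, against 58.9 to 70.1 CPM after Scr.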
